A study of Mus musculus with 9 samples.

Results

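The genes described here mark the 2 cell types of the brain's small vessels: endothelial cells, which line them, and mural cells (pericytes and smooth muscle cells), which wrap them. They were taken as a list of 38 symbols, and each was measured by 1 probe set, the brightest on average of those that the platform annotation pairs with that symbol alone. Of the 38 symbols, 37 were measured among 19147 genes, and Ly6c1 was not analysed here. The 37 are 29 genes of endothelial cells and of ligands that act on them, and 8 mural genes.

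The study profiled cerebella of C57BL/6 mice at postnatal day 5 on 9 custom Affymetrix arrays, 1 per animal, in 3 groups of 3: wild type, SmoA2 mutant and Smo/Smo mutant. SmoA2 and SmoA1 are activating mutations of Smoothened, the membrane protein that relays the Sonic hedgehog signal, and each was expressed from a transgene under a fragment of the ND2 (Neurod2) promoter that the series describes as specific to granule neuron precursors. The labels do not name SmoA1, and the Smo/Smo group was taken as that line by elimination. By the series' description of the promoter the transgene was directed to neuronal precursors, and whether vascular cells expressed it was not tested. The measurements are of whole tissue, where the number of vascular cells, the RNA per cell and RNA from other cells cannot be told apart. Animal codes of the Smo/Smo mice carry another prefix than those of the wild type and SmoA2 mice, so their source and their genotype cannot be told apart.

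Vessels grow into the developing cerebellum under the control of a few ligand and receptor pairs. Vascular endothelial growth factor acts on the receptors Kdr, Flt1 and Flt4, angiopoietins act on the receptor Tek, and endothelial cells recruit pericytes by secreting Pdgfb, which acts on Pdgfrb. Brain endothelial cells also form the blood-brain barrier, with tight junctions of claudin-5 and occludin and with transporters that import nutrients and hormones and expel drugs.

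Array medians lay between 91.0 and 95.1 intensity units, and correlations between arrays lay between 0.994 and 0.998 across probe sets. Values below are log2 intensities or differences of log2 means. A gene was called when limma, fitted to all 9 arrays, gave a Benjamini-Hochberg adjusted p under 0.05 over all 19147 genes. The median standard deviation of a member within groups was 0.10, against 0.11 over all genes, and the number of arrays limits the precision. Y-linked probe sets in mice called female, at 2.80 to 5.57, were used as an indication of background. The smooth muscle actin gene Acta2 had a mean within that range in all 3 groups, and Flt4 and Sox17 in 2 of 3, so values of these 3 genes are not read as levels. The other 34 members, Pecam1, Cldn5 and Cdh5 among them, had all group means above it. Gli1, a target of the pathway, rose in SmoA2 (0.50 ± 0.07, adjusted p = 0.00801) and stood at 0.08 ± 0.07 in Smo/Smo (adjusted p = 0.825). The Smo probe set differed from wild type by -0.17 ± 0.11 in SmoA2 and -0.03 ± 0.11 in Smo/Smo (adjusted p = 0.545 and 0.962), and whether it detects the transgene was not tested.

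In SmoA2 against wild type, 5 of the 37 members were called, 1 higher and 4 lower, where 2.69% of all genes were called (0.961% higher and 1.73% lower). The transcription factor gene Sox18 rose 2.39-fold, while the pericyte genes Vtn and Foxf2 and the endothelial receptor genes Tek and Kdr fell, by 0.69, 0.36, 0.29 and 0.30 on the log2 scale. Of the 37, 24 had a log2 difference below 0, and the median was -0.07, against 0.006 over all genes. The groups did not overlap for 13 members, 1 above and 12 below, which is 35.1% against 19.1% of all genes (8.89% above and 10.2% below). At an unadjusted p under 0.05 limma gave 13 members, against 14.8% of all genes. In Smo/Smo against wild type, none of the 37 was called, where 0.371% of all genes were. At an unadjusted p under 0.05 limma gave 6 members in that comparison, against 8.77% of all genes. Of the 37, 30 lay above 0, against 52.2% of all genes, with a median of 0.07. Its groups did not overlap for 15 members, 12 above and 3 below, which is 40.5% against 15.9% of all genes (7.82% above and 8.12% below). The direct comparison of SmoA2 with Smo/Smo called 7 members, Sox18 higher and Vtn, Foxf2, Tek, Kdr, Slco1c1 and Cldn5 lower, where 2.56% of all genes were called (1.02% higher and 1.54% lower). Its median was -0.16, against -0.003 over all genes, and 20 members did not overlap, 1 above and 19 below, against 18.2% of all genes (8.12% above and 10.1% below). A moderated F test over the 3 groups called 6 members, those 7 without Cldn5, against 2.89% of all genes. The comparisons with wild type share the wild type arrays, and the direct comparison shares the SmoA2 arrays with the first.

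**Figure D1:**
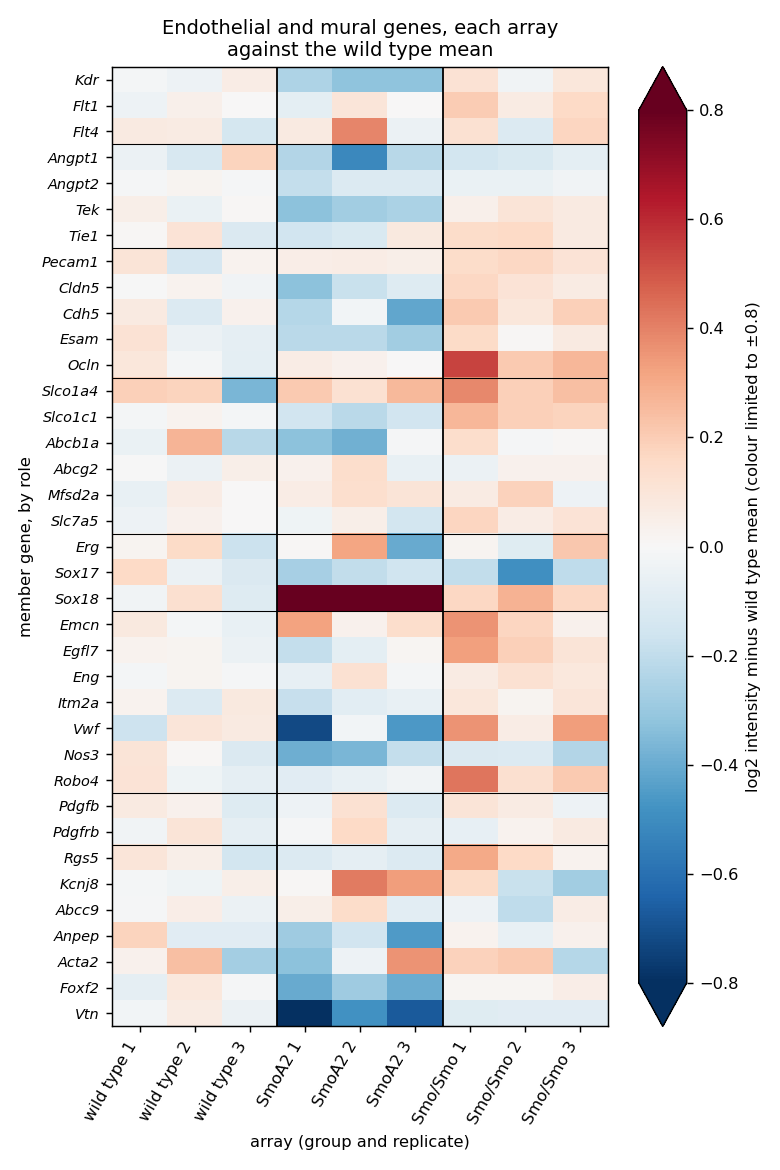
Log2 intensity of the 37 members in each of the 9 arrays, minus the gene's wild type mean. Columns are arrays by group and replicate, rows are genes in blocks of the same role, and colour is limited to 0.8 in either direction. Sox18 is above that limit in all 3 SmoA2 arrays, Vtn is below it in SmoA2 replicate 1, and Vtn, Foxf2, Tek and Kdr are below the wild type mean in each SmoA2 array.

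Promoter sequences from RefSeq (GRCm38.p6) are shown for 4 of the 6 members that were lower in SmoA2 than in Smo/Smo. The examples are receptor genes of separate pathways (Kdr and Tek), a transporter gene (Slco1c1) and a factor gene (Foxf2). Each sequence gives the 250 bases before the annotated start, 5′ to 3′ on the gene's strand. Capitals mark the letters AGGAAG (a form of the site bound by ETS factors such as Erg, longer than its core) and ACAAT (bound by Sox factors), searched on both strands. Shorter or other forms of these sites were not searched. The letters CCACCCA (part of the site bound by Gli factors) and GTAAACA (bound by Fox factors) were searched in the same way and are not in these 4 windows. A match of one motif could share bases with a match of another, and in these windows none did.
Kdr, chr5:75978456-75978705, minus strand: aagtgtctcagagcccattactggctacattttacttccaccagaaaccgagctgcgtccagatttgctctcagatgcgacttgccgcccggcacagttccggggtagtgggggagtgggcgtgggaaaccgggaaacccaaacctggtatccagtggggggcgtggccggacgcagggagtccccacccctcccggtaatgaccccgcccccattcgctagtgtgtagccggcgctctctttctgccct
Tek, chr4:94739039-94739288, plus strand: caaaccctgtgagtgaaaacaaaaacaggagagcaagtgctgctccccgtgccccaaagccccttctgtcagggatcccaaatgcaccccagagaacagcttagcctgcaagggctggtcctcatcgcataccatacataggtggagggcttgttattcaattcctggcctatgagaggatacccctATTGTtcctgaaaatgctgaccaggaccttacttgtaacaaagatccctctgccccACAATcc
Slco1c1, chr6:141524104-141524353, plus strand: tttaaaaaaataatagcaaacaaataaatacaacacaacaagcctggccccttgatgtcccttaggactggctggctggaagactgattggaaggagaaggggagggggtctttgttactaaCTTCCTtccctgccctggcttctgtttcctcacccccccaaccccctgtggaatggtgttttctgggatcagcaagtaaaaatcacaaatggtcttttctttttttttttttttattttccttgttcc
Foxf2, chr13:31625566-31625815, plus strand: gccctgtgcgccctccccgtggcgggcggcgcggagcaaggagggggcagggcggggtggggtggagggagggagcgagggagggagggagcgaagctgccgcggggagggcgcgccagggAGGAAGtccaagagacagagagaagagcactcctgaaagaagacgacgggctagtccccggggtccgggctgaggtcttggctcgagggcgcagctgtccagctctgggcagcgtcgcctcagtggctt
Tek held 2 matches to the Sox letters, Slco1c1 and Foxf2 held 1 match each to the ETS letters, and Kdr held none of the 4. The promoters of Vtn and Cldn5, the other members lower in SmoA2 than in Smo/Smo, held none either, so that 3 of these 6 held a match. Sox18 has no promoter in the table. Of the 37 members, 25 had a promoter in the table. The ETS letters were in 12 of these 25 (48.0%) and in 29.2% of all 27025 promoters of the same length. The Sox letters were in 7 of the 25 (28.0%), against 28.3% of all. The Gli letters were in 6 of 25 (24.0%), against 8.16% of all, in the promoters of Ocln, Eng, Itm2a, Kcnj8, Anpep and Acta2, none of which was called. The Fox letters were in 1 of 25 (4.0%), against 3.09% of all. These are matches of letters and were not tested as binding sites.

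Among the receptors for vascular endothelial growth factor, Kdr was lower in SmoA2 and Flt1 and Flt4 were not called. Kdr is the main signalling receptor of this family on growing vessels. Its log2 intensities were 10.16, 10.14 and 10.24 in wild type, 9.93, 9.86 and 9.85 in SmoA2, and 10.29, 10.15 and 10.27 in Smo/Smo. Every SmoA2 array lay below every wild type and Smo/Smo array, while wild type and Smo/Smo overlapped. The difference from wild type was -0.30 ± 0.06 (n = 3 per group, limma adjusted p = 0.0401) and that from Smo/Smo was -0.36 ± 0.06 (adjusted p = 0.0198). The call against wild type was lost whichever single array was dropped (adjusted p 0.0505 to 0.125 over 9 fits), with arrays centred on their medians, with sex as a covariate and in a fit of those groups alone. That against Smo/Smo ended without SmoA2 replicate 2 or Smo/Smo replicate 1 or 3 (adjusted p up to 0.0828), and in a fit of those groups alone. Flt1, which binds the same ligand and acts largely as a trap for it, had 8.55, 8.63 and 8.59 in wild type, 8.51, 8.69 and 8.59 in SmoA2, and 8.79, 8.66 and 8.75 in Smo/Smo. Its difference in SmoA2 had a 95% confidence interval of -0.14 to 0.16, and its 2 other probe sets gave -0.19 and 0.03 with no call. Flt4, the receptor of lymphatic and sprouting vessels, was at 5.55, 5.54 and 5.33 in wild type, 5.55, 5.86 and 5.43 in SmoA2, and 5.59, 5.37 and 5.65 in Smo/Smo, close to the background range.

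In the angiopoietin pathway the main receptor was lower in SmoA2. Tek, which carries the angiopoietin signal that stabilises vessels, had 9.79, 9.69 and 9.75 in wild type, 9.41, 9.46 and 9.48 in SmoA2, and 9.78, 9.84 and 9.81 in Smo/Smo. All 3 SmoA2 arrays were lower than the other 6. Tek fell by 0.29 on the log2 scale against wild type (1.22-fold, adjusted p = 0.0267) and was 0.36 lower than Smo/Smo (log2 difference -0.36 ± 0.05, adjusted p = 0.0113). Dropping 1 array ended the first call in 7 of 9 fits, all but those without SmoA2 replicate 3 or Smo/Smo replicate 1 (highest adjusted p 0.126), and the same changes of covariate, centring and groups as for Kdr ended it too. The second ended without Smo/Smo replicate 2 or 3 (up to 0.0636). Tie1, its partner receptor, gave 8.52, 8.62 and 8.40 in wild type, 8.36, 8.39 and 8.59 in SmoA2, and 8.66, 8.67 and 8.59 in Smo/Smo, with overlap among the groups and no call (adjusted p = 0.767 against wild type). Angpt1, the activating ligand, which mural and other perivascular cells secrete, had 9.87, 9.79 and 10.09 in wild type, 9.68, 9.40 and 9.70 in SmoA2, and 9.77, 9.80 and 9.84 in Smo/Smo. Its SmoA2 arrays all lay below the wild type arrays, but the difference of -0.33 ± 0.10 was not called (adjusted p = 0.159). Angpt2, the ligand that loosens vessels, was lower in every SmoA2 array than in every wild type array by a small amount, with a difference of -0.14 ± 0.05 and no call (adjusted p = 0.259).

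**Figure D2:**
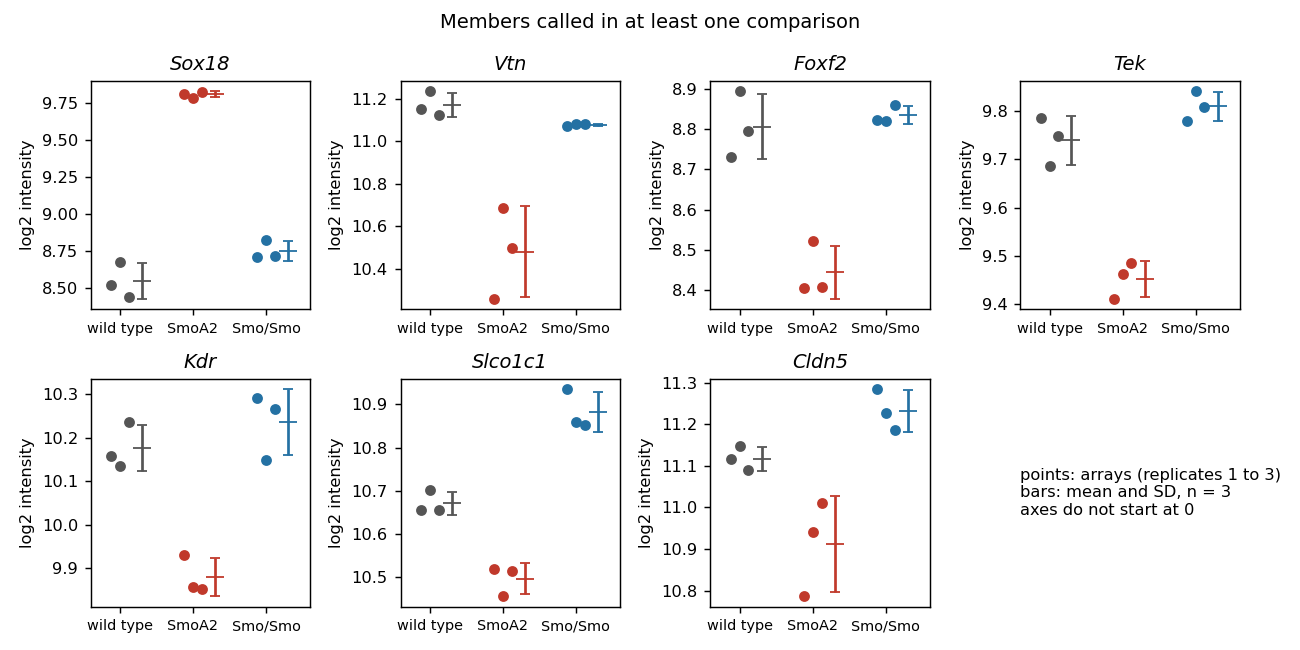
Log2 intensity of the 7 members called in at least 1 comparison, with a point for each array and a bar for the mean and SD of each group (n = 3). Sox18 is higher in SmoA2 at 9.78 to 9.82, while for the other 6 genes the SmoA2 arrays lie below all others. The axes do not start at 0.

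Junction genes gave a call only between the mutant groups. Cldn5, the claudin that seals brain endothelial tight junctions, had 11.12, 11.15 and 11.09 in wild type, 10.79, 10.94 and 11.01 in SmoA2, and 11.28, 11.23 and 11.19 in Smo/Smo. The SmoA2 arrays lay lowest and the Smo/Smo arrays highest, with no overlap among the groups. Only the difference of SmoA2 from Smo/Smo was called (-0.32 ± 0.07, adjusted p = 0.0478), and of the 9 fits that each dropped an array only that without SmoA2 replicate 3 kept this call (adjusted p 0.0371 to 0.157 over the 9). It was also lost in 6 of the 11 fits with other processing. Against wild type Cldn5 differed by -0.20 ± 0.07 in SmoA2 (adjusted p = 0.192) and by 0.11 ± 0.07 in Smo/Smo (adjusted p = 0.712). Esam, an endothelial adhesion molecule of tight junctions, had 9.33, 9.17 and 9.15 in wild type, 9.002, 9.002 and 8.94 in SmoA2, and 9.37, 9.23 and 9.29 in Smo/Smo. Its difference between the mutant groups was -0.31 ± 0.07, with an adjusted p of 0.0515 that missed the threshold, and 5 of the 11 fits with other processing called it (adjusted p 0.0224 to 0.131 over the 11). VE-cadherin (Cdh5), the adherens junction protein of endothelium, had 7.66, 7.49 and 7.63 in wild type, 7.37, 7.57 and 7.17 in SmoA2, and 7.80, 7.68 and 7.78 in Smo/Smo. It differed between the mutant groups by -0.38 ± 0.10 (adjusted p = 0.0895), a difference that was called without SmoA2 replicate 2 (adjusted p = 0.0313).

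Pecam1, a general adhesion molecule of endothelium, was not called in any comparison. Its arrays were at 9.66, 9.42 and 9.59 in wild type, 9.61, 9.62 and 9.60 in SmoA2, and 9.71, 9.72 and 9.67 in Smo/Smo. The SmoA2 arrays fell among those of wild type, and the 95% confidence interval of the difference was -0.10 to 0.21. In Smo/Smo its arrays lay above those of wild type without a call (log2 difference 0.14 ± 0.07, adjusted p = 0.603). Occludin (Ocln), another tight junction protein, had 7.84, 7.73 and 7.67 in wild type, 7.80, 7.78 and 7.75 in SmoA2, and 8.28, 7.96 and 8.01 in Smo/Smo. Its highest values were in Smo/Smo, with a difference from wild type of 0.34 ± 0.09 that was not called (adjusted p = 0.247), and SmoA2 stood at 0.03 ± 0.09. All 5 junction genes lay above 0 in Smo/Smo, as did 52.2% of all genes, and none was called there.

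Among 6 transporters of the barrier, Slco1c1 differed between the mutant groups. Slco1c1 carries thyroxine into the brain and is made by barrier endothelium and by choroid plexus epithelium. Its log2 intensities were 10.65, 10.70 and 10.66 in wild type, 10.52, 10.46 and 10.52 in SmoA2, and 10.94, 10.86 and 10.85 in Smo/Smo, which placed SmoA2 lowest, wild type between and Smo/Smo highest with no overlap. SmoA2 was 1.31-fold lower than Smo/Smo (log2 difference -0.39 ± 0.05, adjusted p = 0.00774), and no single array was needed for this call (highest adjusted p 0.0393 in 9 fits). Neither difference from wild type was called, at -0.17 ± 0.05 for SmoA2 (adjusted p = 0.157) and 0.21 ± 0.05 for Smo/Smo (adjusted p = 0.225). Slc7a5, which imports large neutral amino acids, had 11.20, 11.27 and 11.24 in wild type, 11.21, 11.29 and 11.10 in SmoA2, and 11.41, 11.30 and 11.35 in Smo/Smo. Its SmoA2 arrays overlapped those of wild type, and the SmoA2 difference had an interval of -0.19 to 0.10. The other probe set of Slc7a5 gave -0.10 in SmoA2, 0.23 in Smo/Smo and -0.32 between the mutant groups, with no call.

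The remaining transporters gave no call. Abcg2, an efflux pump, had the narrowest range of the 6, with differences of 0.04 ± 0.07 in SmoA2 and 0.01 ± 0.07 in Smo/Smo. Mfsd2a, which carries lipids and limits transcytosis, gave 0.10 ± 0.07 and 0.07 ± 0.07. Abcb1a, the P-glycoprotein efflux pump, gave -0.24 ± 0.14 and 0.05 ± 0.14, with overlapping groups. Slco1a4, an organic anion transporter, had 7.91, 7.90 and 7.36 in wild type, 7.93, 7.85 and 7.99 in SmoA2, and 8.11, 7.92 and 7.97 in Smo/Smo, so that wild type replicate 3 stood lowest of all 9 arrays. The same array had the lowest choroid plexus markers, and whether these are related was not tested. Its SmoA2 difference was 0.20 ± 0.14, and 0.01 without that array. The other probe set of Slco1a4 gave 0.28 in SmoA2 and 0.30 in Smo/Smo, with no call.

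Sox18 gave the largest difference of any member. It encodes a SoxF transcription factor of endothelial cells that acts in vessel and lymphatic development. Log2 intensities were 8.52, 8.68 and 8.44 in wild type, 9.81, 9.78 and 9.82 in SmoA2, and 8.71, 8.83 and 8.72 in Smo/Smo. The 3 SmoA2 arrays lay within a range of 9.78 to 9.82 and above all others. Sox18 rose 2.39-fold against wild type (log2 difference 1.26 ± 0.07, adjusted p = 3.85e-05) and stood 2.08-fold higher than in Smo/Smo (log2 difference 1.05 ± 0.07, adjusted p = 0.000182). Both calls held in the 9 fits that dropped an array and in the 11 with other processing, where the highest adjusted p was 0.00305 and 0.00441. In Smo/Smo the arrays lay above those of wild type with no call (0.20 ± 0.07, adjusted p = 0.44). Only 1 probe set measured Sox18.

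The related SoxF genes were not called. Sox17 lay in or near the background range at 5.87, 5.67 and 5.60 in wild type, 5.45, 5.52 and 5.55 in SmoA2, and 5.52, 5.2 and 5.51 in Smo/Smo. Its differences were -0.21 ± 0.10 in SmoA2 and -0.30 ± 0.10 in Smo/Smo with no call. Its other probe set, with means in the background range in all 3 groups, gave -0.05 and 0.07 with no call. Sox7, which belongs to a list of further endothelial genes, had 8.62, 8.50 and 8.56 in wild type, 8.49, 8.65 and 8.46 in SmoA2, and 8.71, 8.75 and 8.66 in Smo/Smo, with a SmoA2 difference of -0.03 ± 0.07 and an interval of -0.18 to 0.13. Erg, the ETS factor that maintains endothelial identity, gave -0.03 ± 0.17 in SmoA2 and 0.05 ± 0.17 in Smo/Smo. The other probe set of Erg, with means in the background range in 2 of 3 groups, gave -0.09 and 0.28 with no call. Between the mutant groups it gave -0.37, also with no call. Neighbouring genes were also read: of the 10 measured genes nearest to Sox18 in the gene order of GRCm38.p6, 5 on each side, none was called in SmoA2 and their log2 differences lay between -0.17 and 0.19, with 2 at an unadjusted p under 0.05.

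Of 7 measured endothelial surface and secreted proteins, none was called by limma in SmoA2, in Smo/Smo or between them. At an unadjusted p under 0.05 limma gave 2, 2 and 4, against 14.8%, 8.77% and 14.3% of all genes. All 7 had lower means in SmoA2 than in Smo/Smo, as did 29 of the 37 members and 9788 of all 19147 genes. The von Willebrand factor gene Vwf, which serves clotting, had the widest differences, with 8.47, 8.74 and 8.71 in wild type, 7.92, 8.61 and 8.18 in SmoA2, and 8.995, 8.70 and 8.97 in Smo/Smo. SmoA2 replicate 2 lay among the wild type arrays and replicate 1 lay far below them. The difference between the mutant groups was -0.65 ± 0.17 (adjusted p = 0.0861), and without SmoA2 replicate 2 it was -0.84 and called (adjusted p = 0.0188). Robo4, a guidance receptor of endothelium, had 8.71, 8.57 and 8.54 in wild type, 8.52, 8.55 and 8.58 in SmoA2, and 9.04, 8.74 and 8.81 in Smo/Smo. Its highest values were in Smo/Smo, at 0.26 ± 0.09 from wild type with no call (adjusted p = 0.412). Egfl7, a secreted protein of endothelium, had 8.08, 8.07 and 8.004 in wild type, 7.86, 7.98 and 8.07 in SmoA2, and 8.38, 8.24 and 8.16 in Smo/Smo, with a difference between the mutant groups of -0.29 ± 0.08 (adjusted p = 0.0981). Endothelial nitric oxide synthase (Nos3) had 8.26, 8.16 and 8.04 in wild type, 7.77, 7.79 and 7.96 in SmoA2, and 8.04, 8.04 and 7.92 in Smo/Smo. Its SmoA2 arrays were all below those of wild type, at -0.32 ± 0.08 (adjusted p = 0.0832). Only 2 of the other 11 fits called it, those limited to genes above background and with array weights (adjusted p = 0.0434 and 0.0366). Endomucin (Emcn), endoglin (Eng) and Itm2a gave differences between -0.11 and 0.16 in SmoA2, and between 0.07 and 0.19 in Smo/Smo.

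**Figure D3:**
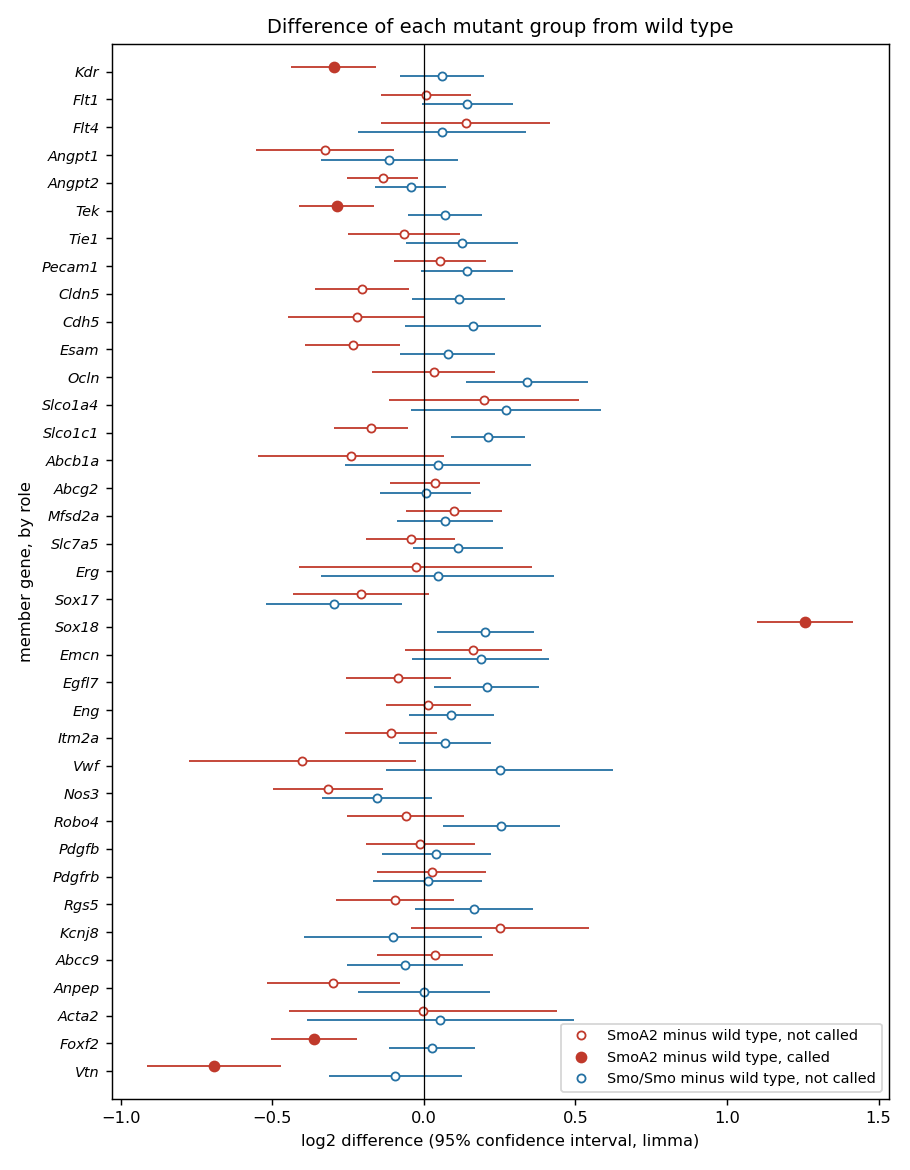
Log2 difference from wild type of each of the 37 members, with its 95% confidence interval from limma, for SmoA2 (red) and Smo/Smo (blue). Filled points are called. Sox18, Vtn, Foxf2, Tek and Kdr are called in SmoA2 and no gene is called in Smo/Smo, where 30 of 37 points lie above 0.

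The pair that links endothelium to pericytes was not called in any comparison, also not at an unadjusted p under 0.05 (limma, 0 of 2 genes in each). Pdgfb, the recruiting factor, had 7.82, 7.79 and 7.65 in wild type, 7.71, 7.87 and 7.64 in SmoA2, and 7.85, 7.82 and 7.71 in Smo/Smo. Pdgfrb, its receptor on pericytes, had 9.34, 9.47 and 9.29 in wild type, 9.36, 9.52 and 9.30 in SmoA2, and 9.30, 9.40 and 9.44 in Smo/Smo. All groups overlapped for both genes. The 95% confidence intervals were -0.19 to 0.17 and -0.15 to 0.21 in SmoA2, and -0.14 to 0.22 and -0.17 to 0.19 in Smo/Smo.

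Among the mural genes Vtn and Foxf2 fell in SmoA2. Vitronectin (Vtn), a matrix protein that brain pericytes secrete, had 11.15, 11.24 and 11.13 in wild type, 10.26, 10.69 and 10.50 in SmoA2, and 11.07, 11.08 and 11.08 in Smo/Smo. The SmoA2 arrays lay below the rest and spread most, and the Smo/Smo arrays spread least. Vtn was 1.61-fold lower in SmoA2 than in wild type (log2 difference -0.69 ± 0.10, adjusted p = 0.00699), a call that no single array decided (highest adjusted p 0.0374). It was lost in a fit without both wild type replicate 3 and SmoA2 replicate 3 (adjusted p = 0.0662). Vtn was also 1.51-fold lower than in Smo/Smo (-0.60 ± 0.10, adjusted p = 0.0153), a call that ended when any of the Smo/Smo arrays was dropped (up to 0.0651) and in a fit of those groups alone.

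Foxf2, a transcription factor of brain pericytes, had 8.73, 8.89 and 8.79 in wild type, 8.41, 8.52 and 8.41 in SmoA2, and 8.82, 8.82 and 8.86 in Smo/Smo. Each SmoA2 array was below each of the other 6. The differences were -0.36 ± 0.06 from wild type (adjusted p = 0.0185) and -0.39 ± 0.06 from Smo/Smo (adjusted p = 0.0146). Dropping wild type replicate 2, wild type replicate 3, SmoA2 replicate 1 or SmoA2 replicate 3 ended the first call (up to 0.0706), as did a fit of those groups alone. The second ended without SmoA2 replicate 1 or any Smo/Smo array (up to 0.0674). Rgs5, a regulator of G protein signals and a common pericyte marker, had 8.18, 8.13 and 7.94 in wild type, 7.97, 8.01 and 7.97 in SmoA2, and 8.38, 8.24 and 8.11 in Smo/Smo, with no call in any comparison. The channel subunits Kcnj8 and Abcc9, which form a potassium channel of pericytes, gave 0.25 ± 0.13 and 0.04 ± 0.08 in SmoA2, also with no call. Anpep, a surface peptidase of pericytes, had lower values in every SmoA2 array than in any wild type array, at -0.30 ± 0.10 (adjusted p = 0.18). Acta2 was at 4.87, 5.08 and 4.57 in wild type, 4.51, 4.80 and 5.20 in SmoA2, and 5.02, 5.05 and 4.61 in Smo/Smo, within the background range. Of the 8 mural genes, counting Pdgfrb, 2 were thus lower in SmoA2 and 6 were not called.

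Further genes of vessels were read from 6 lists, by the same test. Of 27 measured genes of growth factor, Notch and angiogenic signalling, 3 rose in SmoA2 and none fell. Of all genes 0.961% were called higher there and 1.73% lower. Pgf, a ligand of Flt1, rose by 0.45 (adjusted p = 0.0101), and Jag1, a Notch ligand, by 0.32 (adjusted p = 0.0267). Sema3e, a repellent that acts on endothelial cells and axons, had 5.01, 5.07 and 4.99 in wild type, 6.58, 6.82 and 6.89 in SmoA2, and 6.26, 5.63 and 5.19 in Smo/Smo. It rose by 1.74 on the log2 scale from a wild type mean within the background range. Vegfa, the main ligand of Kdr, had a SmoA2 difference of -0.07 ± 0.07 and an interval of -0.24 to 0.09. The median of the list was -0.01 in SmoA2 and 0.01 in Smo/Smo.

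Of 14 genes of the Wnt and norrin pathway, which endothelial cells need to form the barrier, none was called in any comparison. At an unadjusted p under 0.05 limma gave 2 in SmoA2, 0 in Smo/Smo and 3 between the mutant groups. The shares of all genes were 14.8%, 8.77% and 14.3%. The smallest p values were those of Ndp (norrin, 0.22 ± 0.07 in SmoA2, adjusted p = 0.169) and Adgra2, a co-receptor for Wnt7 ligands (-0.38 ± 0.12, adjusted p = 0.184, with a SmoA2 mean within the background range). Of 18 further barrier genes, only the lactate transporter gene Slc16a1 was called. That is 5.56% in SmoA2, where 2.69% of all genes were called. Slc16a1 fell by 0.35 in SmoA2 (adjusted p = 0.0188) and had 11.48, 11.44 and 11.49 in wild type, 11.17, 11.17 and 11.01 in SmoA2, and 11.54, 11.55 and 11.59 in Smo/Smo. The glucose transporter gene Slc2a1 gave -0.06 ± 0.06 in SmoA2 and 0.14 ± 0.06 in Smo/Smo, with no call. Plvap, which marks leaky vessels, gave 0.26 ± 0.12 and 0.28 ± 0.12, also with no call.

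Among 25 further endothelial genes 1 was called in SmoA2, Rgcc, which rose. That is 4% of them, where 2.69% of all genes were called. Rgcc encodes a regulator of the cell cycle and had 9.88, 10.06 and 9.86 in wild type, 10.38, 10.44 and 10.42 in SmoA2, and 9.68, 9.72 and 9.50 in Smo/Smo. It rose by 0.48 (adjusted p = 0.0137), its Smo/Smo arrays lay below those of wild type, and it differed between the mutant groups by 0.78 ± 0.08 (adjusted p = 0.0018). The median of these 25 was -0.10 in SmoA2 and 0.06 in Smo/Smo. Of them, 23 had a lower mean in SmoA2 than in Smo/Smo, as did 9788 of all 19147 genes. Rgcc was the 1 gene of the 25 called in that comparison, where 2.56% of all genes were called. Of 11 genes of the vascular basement membrane, 9 lay below 0 and 2 above in SmoA2, with a median of -0.14. In Smo/Smo 8 lay above 0 and 3 below, with a median of 0.06. Lama5, a laminin chain that other basement membranes also hold, rose 3.51-fold in SmoA2 (adjusted p = 3.62e-05) and 1.65-fold in Smo/Smo (adjusted p = 0.0201). Nid2, a linker protein of basement membranes, fell by 0.34 in SmoA2 (adjusted p = 0.0424). Calls in SmoA2 thus made up 18.2% of the 11 (1 higher and 1 lower), against 2.69% of all genes. In Smo/Smo they made up 9.09% (1 higher), against 0.371% of all genes. The collagen gene Col4a1 gave -0.11 ± 0.06 in SmoA2 with no call. Of 20 further mural genes, Tbx18, a factor of mural and meningeal cells, fell by 0.66 (adjusted p = 0.00585) and Art3 by 0.51 (adjusted p = 0.0165) in SmoA2, and 18 were not called. Of all genes 1.73% were called lower there. The median of these 20 was 0.02 in SmoA2 and 0.12 in Smo/Smo.

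Markers of other cells around the vessels differed in the same arrays. Of 17 meningeal fibroblast markers 9 fell in SmoA2 and none rose, with a median of -0.44, where 1.73% of all genes were called lower. None of the 17 was called in Smo/Smo (limma, 6 at an unadjusted p under 0.05, against 8.77% of all genes). In that comparison 15 of the 17 lay below 0, as did 9147 of all 19147 genes. Between the mutant groups 5 of the 17 were called lower in SmoA2 and none higher, with a median of -0.30. Of all genes 1.54% were called lower there. Summed intensity of the 17 was 22179 to 22975 in wild type, 17604 to 19920 in SmoA2 and 21426 to 21935 in Smo/Smo. Aldh1a2, which makes retinoic acid in the meninges, fell 2.96-fold (adjusted p = 0.00114), and none of the 17 had all its means within the background range. The part of this fall in the results for Vtn, Foxf2, Tek and Kdr was not tested. Of 14 microglia and macrophage markers, 2 fell in SmoA2, where 1.73% of all genes were called lower. They were the border macrophage genes Lyve1 (-0.91 ± 0.05, adjusted p = 5.52e-05) and Mrc1 (-0.72 ± 0.07, adjusted p = 0.000957). The median of the list was 0.11. Against Smo/Smo, 3 of the 14 were called higher in SmoA2 and 2 lower, with a median of 0.37. Of all genes 1.02% were called higher and 1.54% lower there. Summed intensity of the 14 was 4817 to 5219.7 in wild type, 4947 to 5918 in SmoA2 and 4218 to 4645 in Smo/Smo. Astrocyte and Bergmann glia markers, cells whose endfeet cover the vessels, had a median of -0.20 in SmoA2. Of these, 2 of 12 were called lower there, where 1.73% of all genes were. Their sums were 47265 to 49649 in wild type, 43007 to 44394 in SmoA2 and 47844 to 48673 in Smo/Smo.

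Choroid plexus markers, of an epithelium that lies over leaky vessels and that also makes Slco1c1, differed most among arrays of these lists. None of the 11 was called in SmoA2 or Smo/Smo, with medians of 1.43 and 1.72. At an unadjusted p under 0.05 limma gave 10 and 9 of them, against 14.8% and 8.77% of all genes. In all 11, every array of each mutant group lay above every wild type array. Of all genes 8.89% lay so in SmoA2 and 7.82% in Smo/Smo. Between the mutant groups, where Slco1c1 was called, none of the 11 was called either (0 at an unadjusted p under 0.05), with a median of -0.35. In 8 of the 11 every SmoA2 array lay below every Smo/Smo array, and in none above. Of all genes 10.1% lay below and 8.12% above in this way. Ttr, its most abundant product, had 11.39, 11.26 and 4.95 in wild type, 11.74, 11.84 and 11.93 in SmoA2, and 12.14, 12.03 and 12.04 in Smo/Smo, so that wild type replicate 3 lay in the background range. Summed intensity of the list was 2051 to 6609 in wild type, 8789.5 to 10392 in SmoA2 and 10553 to 12141 in Smo/Smo. The part of these markers in the result for Slco1c1 was not tested. Erythrocyte markers (5 measured, 2 with all means in the background range) and leukocyte markers (10 measured, 5 in that range) gave no call in any comparison by limma. At an unadjusted p under 0.05 they gave 1 and 0 in SmoA2, 0 and 3 in Smo/Smo, and 0 and 2 between the mutant groups. Of all genes 14.8%, 8.77% and 14.3% passed in these comparisons. Of 7 Purkinje cell markers 3 were called lower in SmoA2, where 1.73% of all genes were. All 7 lay below 0 (median -0.44) and had an unadjusted p under 0.05 by limma, against 14.8% of all genes. Of 9 granule neuron progenitor markers 3 were called higher in SmoA2, where 0.961% of all genes were, and 5 lay above 0 and 4 below.

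**Figure D4:**
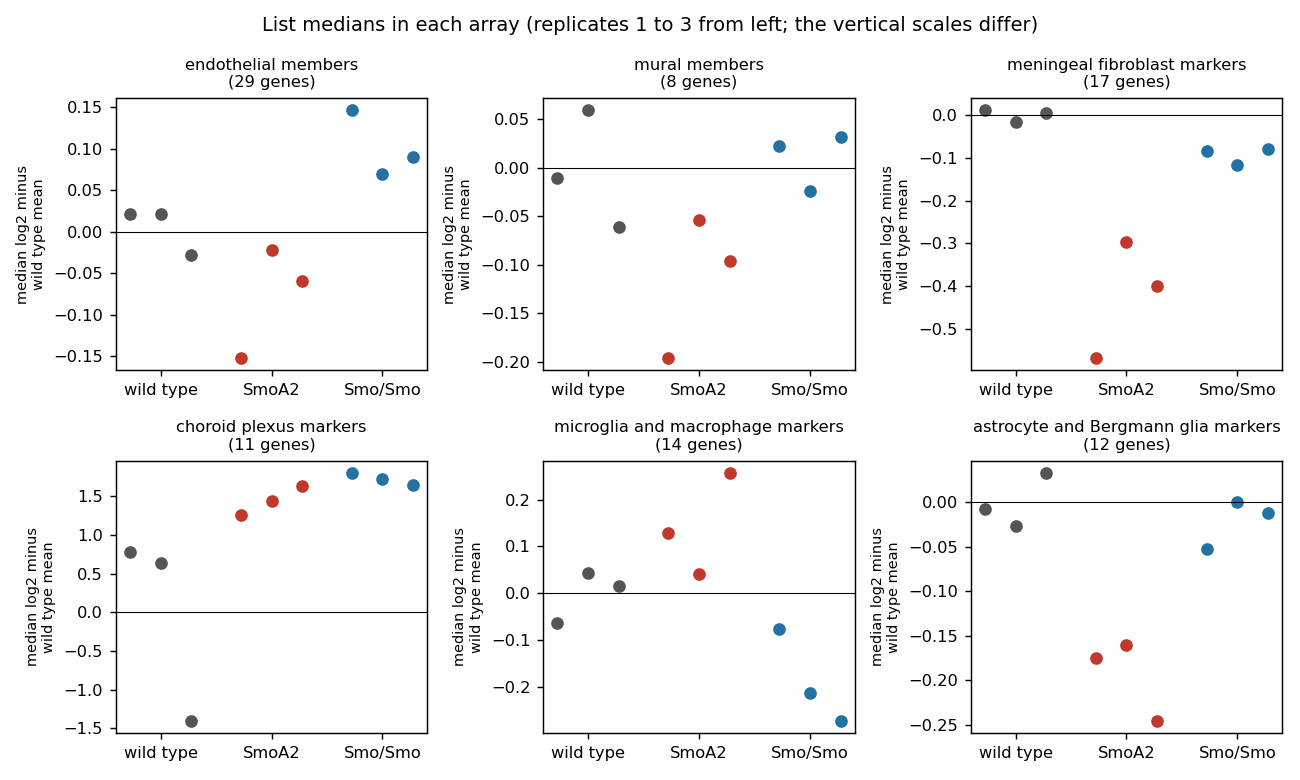
Median over each list of log2 intensity minus the gene's wild type mean, with a point for each array (replicates 1 to 3 from the left in each group). The endothelial median is -0.15 to -0.02 in SmoA2 and 0.07 to 0.15 in Smo/Smo, the meningeal median is -0.57 to -0.30 in SmoA2, and the choroid plexus median is -1.40 in wild type replicate 3. The vertical scales differ between panels.

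As a set, the 29 endothelial members had array medians of 0.02, 0.02 and -0.03 in wild type, -0.15, -0.02 and -0.06 in SmoA2, and 0.15, 0.07 and 0.09 in Smo/Smo, each gene taken against its wild type mean. The Smo/Smo arrays were thus above all others, and SmoA2 replicate 2 overlapped wild type. The 8 mural genes had -0.01, 0.06 and -0.06 in wild type, -0.20, -0.05 and -0.10 in SmoA2, and 0.02, -0.02 and 0.03 in Smo/Smo. Replicate 1 was the lowest SmoA2 array in both sets and in the meningeal markers, where its median was -0.57. In SmoA2 against wild type 3 of 29 endothelial members were called, Sox18 higher and 2 lower, where 2.69% of all genes were. Of the 8 mural members 2 were called, each lower. Between the mutant groups it was 5 of 29, Sox18 higher and 4 lower, and 2 of 8, each lower, where 2.56% of all genes were called.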

How the data were processed

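The authors deposited 1 table of probe set intensity for 9 arrays, summarised by RMA per the submitters' processing notes, with no version. Its values proved to be on a linear scale, so log2 of each value was taken. Software settings and the array's chip definition are not given in the sources used here. The platform annotation gave 1 symbol to 24478 of 38385 probe sets, several to 65 and none to 13842. Groups came from the sample titles, and replicate numbers are only names.

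All 19147 genes were fitted with limma 3.58.1 in R 4.3.3 (lmFit and eBayes, a mean per group, 6 residual degrees of freedom, no covariate), and p-values were adjusted by Benjamini-Hochberg over all genes. Errors after ± are standard errors of the fit. By Xist and Y-linked signals, 1 wild type mouse, 2 SmoA2 mice and 2 Smo/Smo mice were male.

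The members and lists were chosen with earlier results of these data known, and no list was tested as a set. Values in every array were given for members called in any comparison, for 12 fixed genes, for the 2 members of each role with the smallest moderated F p, and for members with an unadjusted p under 0.01. Further lists gave up to 4 called genes, or 2 where none was called, and lists of other cell types up to 2. Sox7, Vegfa, Slc2a1, Plvap, Col4a1, Ttr and the members Flt4 and Slco1a4 were named beside these after their values were seen. Of 224 symbols in those lists, 200 were measured. Alternatives changed the probe set choice, the filter, the normalization, a pseudocount of 16, the variance model, array weights, the groups fitted, the threshold, a sex covariate and single arrays. Python 3.11.15 with matplotlib 3.10.9 drew the figures and searched the promoters.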

Additional observations from a re-analysis of the deposited data

Results flagged for a closer look

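The effects of the mutant groups on 7 members differed by the direct test between SmoA2 and Smo/Smo (limma, n = 3 per group). The log2 difference was 1.05 for Sox18, with SmoA2 higher. It was -0.60 for Vtn, -0.39 for Foxf2, -0.39 for Slco1c1, -0.36 for Kdr, -0.36 for Tek and -0.32 for Cldn5, with SmoA2 lower. The Smo/Smo animals carry another prefix in their codes than the SmoA2 animals.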

How the results depend on the processing

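The count of members called in SmoA2 against wild type, 5, became 3 with arrays centred on their medians, 3 with sex as a covariate, 2 in a fit of only those groups and 2 at an adjusted p under 0.01. Leaving out 1 array gave 2 to 4, and leaving out wild type replicate 3 and SmoA2 replicate 3 together gave 1, Sox18. Sox18 was called in every fit of that comparison and of the direct one, at each threshold. The count between SmoA2 and Smo/Smo, 7, became 4 in a fit of only those groups, 2 at an adjusted p under 0.01, 11 at an adjusted p under 0.10, 2 to 7 with 1 array left out (3, 3 and 2 without Smo/Smo replicates 1, 2 and 3) and 3 without wild type replicate 3 and SmoA2 replicate 3. In Smo/Smo against wild type the count was 0 in every limma fit (6 at an unadjusted p under 0.05). The members' median difference ranged from -0.12 to -0.045 in SmoA2 and from -0.22 to -0.14 between the mutant groups when 1 array was left out, and the lowest values of both were those without SmoA2 replicate 3. Without wild type replicate 3 and SmoA2 replicate 3 together the latter was -0.22. The median in Smo/Smo stayed between 0.06 and 0.10. The remaining alternatives kept these counts within 1.5 times and these medians within 1 SD of the arrays (0.05). Among single members, 70 fits ended a call and 17 made one, none turned a called direction, and 83 changed the sign of a value that was not called in either fit, out of 2433. The causes were not tested. No paired analysis was possible because the labels give animal codes and no replicate number shared by the groups. Arrays have no read depth, and 3 members lay in or near the background range.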
